A study of Homo sapiens with 9 samples.

Results

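The mRNAs of 8 enzymes that make, break down or exchange glutamine (Gln) and glutamate were followed in HepG2 cells, an established human liver tumor line, under Gln deprivation. They were GLUL, GLS2, GLUD1, GOT1, GOT2, GPT, GPT2 and OAT, taken by gene symbol from the 22587 genes of the deposited expression table, and all 8 were found there. RNA came from 9 samples of cells cultured in high-glucose DMEM with fetal bovine serum. Gln had been added for 3 samples, 3 had gone without it for 12 h and 3 for 24 h. How long the cultures with Gln added were kept after the change of medium is not stated in the sources used here. GlutaMAX, a dipeptide from which cells obtain Gln, is given in the labels as the treatment of the cultures with Gln added, but the treatment protocol and the methods have it in the medium used for deprivation. The groups are named here by their labels, and the line is a model of one tumor rather than of normal liver.

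Glutamine synthetase (GLUL) joins ammonia to glutamate to form Gln, and glutaminases such as GLS2, the liver type, release the ammonia again and return glutamate. Glutamate dehydrogenase (GLUD1) then yields 2-oxoglutarate for the tricarboxylic acid cycle in mitochondria, while transaminases move the amino group of glutamate onto other carbon skeletons without freeing ammonia. In the liver GLUL and OAT are known from cells around the central veins, and GLS2 from cells around the portal veins.

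The deposited values were FPKM, that is, fragments scaled for gene length and library total. Whole fragments could be worked back from them, at 29621270 to 36261546 on genes per library. Among the 5112 genes averaging 10 FPKM or more, replicates varied by a median coefficient of variation of 2.84% (Gln added), 4.03% (12 h) and 4.37% (24 h). All 11 markers of hepatocytes and HepG2 cells had a mean of at least 1 FPKM, with ALB between 3230 and 3908 FPKM. Summed, they stood at 8908 to 9002 FPKM with Gln added, then 8001 to 8157 at 12 h and 7751 to 8197 at 24 h. Of the markers of other cell types, the 3 fibroblast genes listed were below 0.1 FPKM, and the 3 endothelial genes listed were all below a mean of 1 FPKM. The 2 leukocyte genes listed summed to 37.4 to 37.7, 29.6 to 32.7 and 22.2 to 26.9 FPKM, nearly all of it CD68, and CD14 was at 0.994 to 1.75 FPKM. Of the cholangiocyte genes, KRT7 was at or below 0.0105 FPKM and KRT19 and SOX9 were at 74.4 to 131 and 48.3 to 90.2 FPKM. Their part in the results was not tested. In bulk RNA fewer cells of a kind and less RNA per cell cannot be told apart.

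Of the 8 enzymes, 2 rose and 4 fell at 12 h of Gln deprivation, and the same 2 rose and the same 4 fell at 24 h. GOT1 and GPT2 rose, by 1.78 and 1.81 times at 12 h. GLS2, GLUD1, GOT2 and GPT fell, to between 0.470 and 0.766 times the mean with Gln added at 12 h. GLUL and OAT were not called at either time. The test was limma on log2(FPKM + 0.1) over 11880 genes with a Benjamini-Hochberg adjusted p under 0.05, and a log2 fold change below is always on that scale. By the same rule 29.1% of all genes tested were higher and 31.0% lower at 12 h, and 33.0% were higher and 31.7% lower at 24 h, so the counts among the 8 enzymes lay near those of the whole table. The median log2 fold change of the 8 was -0.17 at 12 h and -0.22 at 24 h, beside -0.02 and 0.01 over all genes tested. Deprived and Gln-added libraries did not overlap for 7 of the 8 enzymes at 12 h, as for 67.2% of genes, and for 6 at 24 h, as for 69.9%. Both times share the 3 libraries with Gln added.

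**Figure D1:**
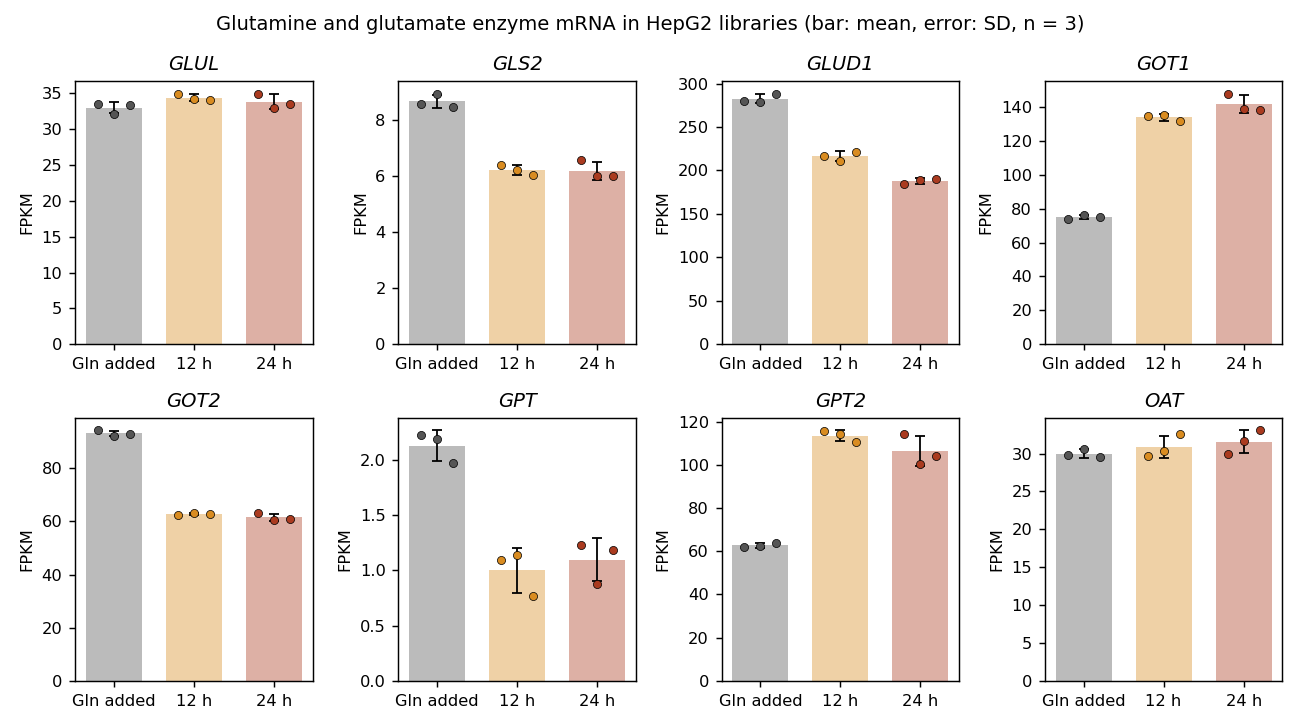
FPKM (vertical axes, from 0) of each enzyme mRNA in the 3 libraries of each group; points are libraries, bars are means and error bars are SD (n = 3). GOT1 and GPT2 stand higher and GLS2, GLUD1, GOT2 and GPT lower in the Gln-deprived libraries, while GLUL and OAT stay between 29.5 and 35.0 FPKM in all 9.

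GLUL lies on the minus strand of chromosome 1, between 182378098 and 182392206 (GENCODE v44 on the build GRCh38, as for all positions here). With Gln added its mRNA was at 33.5, 32.2 and 33.4 FPKM. In the deprived libraries it was at 35.0, 34.1 and 34.0 FPKM after 12 h and at 34.9, 32.9 and 33.6 FPKM after 24 h. The 12 h libraries were thus all slightly above those with Gln added, and the 24 h libraries overlapped with both groups. Against Gln added, GLUL differed by 0.06 on the log2 scale at 12 h, with an SE of 0.036 and a limma adjusted p of 0.186, and by 0.03 at 24 h, with an adjusted p of 0.429. The 95% intervals ran from a fall of 1.51% to a rise of 10.1% at 12 h and from -3.15% to 8.27% at 24 h. With FPKM rescaled to the same total per library the 12 h value was 0.09 and passed the threshold (adjusted p = 0.0448 from limma). GENCODE v44 holds 4 pseudogenes named after GLUL, none of them listed in the table, and how reads shared with them were assigned is not given in the sources used here.

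GLS2, on chromosome 12 from 56470944 to 56488414 (minus strand), was at 8.56, 8.94 and 8.47 FPKM with Gln added. It was at 6.38, 6.20 and 6.03 FPKM after 12 h of deprivation and at 6.56, 6.01 and 5.99 FPKM after 24 h. Every deprived library was below every library with Gln added, and the values of the 2 times overlapped. GLS2 fell by 0.47 on the log2 scale at 12 h, with an SE of 0.052 and a limma adjusted p of 2.12e-05, and by 0.48 at 24 h, with an adjusted p of 1.48e-05. These levels rest on 485 to 801 fragments per library. SPRYD4 runs the other way through the same locus, and its exons span 77.1% of the exonic bases of GLS2. SPRYD4 itself fell by 0.41 on the log2 scale at 12 h (adjusted p = 0.00146 from limma) and by 0.35 at 24 h (adjusted p = 0.00333 from limma). The methods describe strand-specific libraries but the labels name another kit, and whether strand was used in counting is not given in the sources used here, so the level of GLS2 is uncertain.

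Per length, GLUL mRNA was 3.82 ± 0.189 times as abundant as that of GLS2 with Gln added (SD, n = 3). After 12 h this ratio was 5.54 ± 0.091, and after 24 h it was 5.47 ± 0.135 (SD, n = 3). The 6 deprived libraries ranged from 5.33 to 5.65, and those with Gln added did not go above 3.94. In each of 3 pairs of enzymes the log ratio was compared between groups by a two-sided exact permutation test of 3 libraries against 3, whose smallest p is 0.1. For GLUL against GLS2 both deprived groups gave that p against Gln added, 0.129 after adjustment over the 9 comparisons made, so no ratio of this kind could pass 0.05. The overlap of GLS2 with SPRYD4 bears on this ratio as well.

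GLUD1 was the most abundant of the 8 mRNAs in every group. It is on chromosome 10 from 87050202 to 87094843 (minus strand). With Gln added it was at 280, 279 and 289 FPKM, which placed it 162nd among all genes of the table. It was at 217, 211 and 222 FPKM after 12 h and at 184, 189 and 191 FPKM after 24 h. The 3 groups did not overlap, and the 24 h libraries were the lowest. GLUD1 fell by 0.39 on the log2 scale at 12 h, with an SE of 0.032 and a limma adjusted p of 2.83e-06, and by 0.59 at 24 h, with an adjusted p of 7.81e-08. Between 12 h and 24 h it fell by 0.20 (adjusted p = 0.00173 from limma), with a 95% interval of -17.4% to -8.73%.

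GLUD2, an intronless copy of GLUD1 in the human genome, was listed at 0.850 ± 0.156 FPKM with Gln added (SD, n = 3), with 64 to 89 fragments in each library. GLUD2 had 0.619 ± 0.194 FPKM at 12 h and 0.741 ± 0.149 at 24 h (SD, n = 3), and did not pass the test at either time (adjusted p = 0.129 and 0.512 from limma). GLUD1 had 24313 to 39694 fragments per library, against 36 to 89 for GLUD2. GENCODE v44 also holds 4 pseudogenes named after GLUD1, which the table does not list.

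The aspartate transaminases GOT1 and GOT2 exchange amino groups between glutamate and oxaloacetate, GOT1 in the cytosol and GOT2 in mitochondria, and work with the malate dehydrogenases in the malate-aspartate shuttle, which carries reducing equivalents across the inner mitochondrial membrane. The 250 bases before the start of each gene are printed, since their mRNAs moved in opposite directions. They are taken from RefSeq on GRCh38.p14 and read 5′ to 3′ on the strand of the gene, from chr10:99430625-99430874 (minus strand) for GOT1 and from chr16:58734317-58734566 (minus strand) for GOT2. Capitals mark the match to a core of the amino acid response element, at which ATF4 and CEBP factors are known to bind.
GOT1: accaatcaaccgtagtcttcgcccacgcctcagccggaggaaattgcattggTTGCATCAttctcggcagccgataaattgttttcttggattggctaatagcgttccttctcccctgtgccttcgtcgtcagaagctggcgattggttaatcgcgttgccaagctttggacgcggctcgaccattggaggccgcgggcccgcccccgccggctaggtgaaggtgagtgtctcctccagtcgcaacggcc
GOT2: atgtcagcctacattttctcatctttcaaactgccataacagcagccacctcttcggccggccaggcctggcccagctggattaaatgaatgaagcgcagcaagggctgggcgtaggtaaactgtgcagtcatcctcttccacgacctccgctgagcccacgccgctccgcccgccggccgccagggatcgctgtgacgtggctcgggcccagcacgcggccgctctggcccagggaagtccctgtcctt

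The letters TGATGNAA were searched on both strands from 250 bases before to 50 bases after the start. GOT1 held 1 match, on the reverse strand from position -198 to -191 of the start. The 7 windows of GLS2, GLUL (2 windows), GLUD1, GOT1, GOT2 and OAT held no other match to these letters, and none to TGANTCA (AP-1), CACGTG (E-box) or CTTTGAT (TCF). The promoters of GPT and of GPT2, the other enzyme that rose, were not searched here, so these matches do not cover all 8 genes. Of 35116 windows of all genes, 3.62% held TGATGNAA, 7.71% TGANTCA, 7.26% CACGTG and 2.62% CTTTGAT, and of the 13652 windows of genes tested here 1.97% held TGATGNAA. A match describes letters and is not evidence of binding.

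GOT1, on chromosome 10 from 99396870 to 99430624 (minus strand), was at 73.8, 76.3 and 75.2 FPKM with Gln added. Its mRNA was at 135, 136 and 132 FPKM after 12 h and at 148, 139 and 138 FPKM after 24 h. All 6 deprived libraries stood above those with Gln added, and the 24 h libraries were all above those of 12 h. GOT1 rose by 0.83 on the log2 scale at 12 h, with an SE of 0.035 and a limma adjusted p of 1.89e-08, and by 0.91 at 24 h, with an adjusted p of 5.54e-09 and a ratio of the means of 1.88. This was the largest rise among the 8 enzymes at 24 h, and 4.04% of all genes tested had a higher log2 fold change.

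GOT2, on chromosome 16 from 58707131 to 58734342 (minus strand), was at 94.3, 92.3 and 92.9 FPKM with Gln added. It was at 62.5, 63.3 and 62.8 FPKM after 12 h and at 63.1, 60.6 and 61.1 FPKM after 24 h. The deprived libraries were all lower, and the 2 times overlapped. GOT2 fell by 0.57 on the log2 scale at 12 h, with an SE of 0.031 and a limma adjusted p of 1.09e-07, and by 0.60 at 24 h, with an adjusted p of 4.55e-08. Exons on the opposite strand cover 4.32% of its exonic bases, and GENCODE v44 holds 6 pseudogenes named after it, none of them listed in the table.

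The order of the 2 aspartate transaminases turned around under deprivation. With Gln added GOT1 made up 44.6 ± 0.685% of their summed FPKM, and its share was 68.0 ± 0.315% at 12 h and then 69.7 ± 0.380% at 24 h (SD, n = 3). The ratio of GOT1 to GOT2 went from 0.783 to 0.827 in the libraries with Gln added to 2.09 to 2.15 at 12 h and 2.26 to 2.34 at 24 h. The log2 ratio differed by 1.40 at 12 h and 1.51 at 24 h from Gln added, and by 0.11 between the times, with no overlap in any of these comparisons (exact permutation p = 0.1 for each, 0.129 after adjustment). Their summed level, 168 ± 0.335 FPKM with Gln added, was 197 ± 2.24 FPKM after 12 h and 203 ± 6.77 FPKM after 24 h (SD, n = 3). A ratio within a library does not depend on the scaling between libraries.

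**Figure D2:**
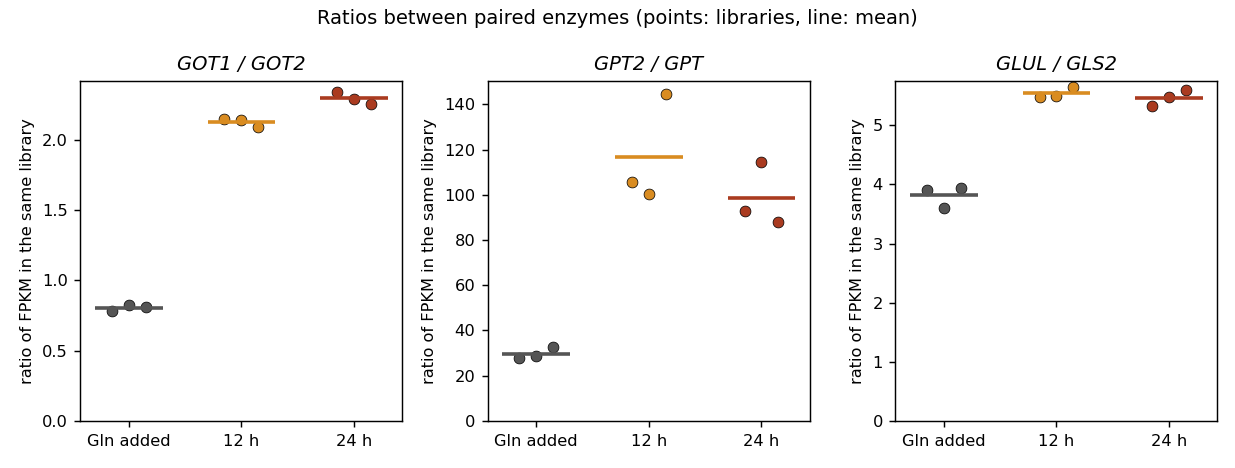
Ratio of the FPKM of 2 enzymes in the same library (vertical axes, from 0) for GOT1 over GOT2, GPT2 over GPT and GLUL over GLS2; points are the 3 libraries of a group and lines are their means. In each pair the Gln-deprived libraries lie above those with Gln added, GOT1 over GOT2 between 2.09 and 2.34 against 0.783 to 0.827.

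The alanine transaminases GPT and GPT2 exchange amino groups between glutamate and pyruvate, GPT in the cytosol and GPT2 in mitochondria. GPT2, on chromosome 16 from 46884362 to 46931289 (plus strand), was at 61.9, 62.3 and 63.9 FPKM with Gln added. It was at 115, 114 and 111 FPKM after 12 h and at 114, 101 and 104 FPKM after 24 h. All deprived libraries lay above those with Gln added, and replicate 1 at 24 h lay within the range of the 12 h libraries. GPT2 rose by 0.85 on the log2 scale at 12 h, the largest rise of the 8 enzymes at that time, with an SE of 0.045 and a limma adjusted p of 9.77e-08. At 24 h it was higher by 0.76, with a limma adjusted p of 1.5e-07. Exons of other genes do not overlap those of GPT2 in GENCODE v44.

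GPT, on chromosome 8 from 144502973 to 144507174 (plus strand), was the least abundant of the 8 mRNAs in every group. It was at 2.23, 2.19 and 1.97 FPKM with Gln added, at 1.09, 1.14 and 0.765 FPKM after 12 h and at 1.23, 0.877 and 1.19 FPKM after 24 h. All deprived libraries were lower, with 52 to 83 fragments each, against 132 to 150 in those with Gln added. GPT fell by 1.03 on the log2 scale at 12 h, with an SE of 0.16 and a limma adjusted p of 0.00025, and by 0.91 at 24 h, with an adjusted p of 0.000521, the largest fall of the 8 enzymes at both times on this scale. With 1 added to FPKM in place of 0.1 it fell by 0.65 at 12 h and by 0.58 at 24 h, where GOT2 and GLUD1 both fell by 0.59. For the lowest library, with 52 fragments, the 95% Poisson interval was 0.572 to 1.00 FPKM, while the lowest library with Gln added had 1.65 to 2.33. Such intervals cover counting error only. An lncRNA on the opposite strand covers 7.51% of the exonic bases of GPT.

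As with the aspartate transaminases, the 2 alanine transaminases moved apart. Per length, GPT2 mRNA was 29.6 ± 2.53 times as abundant as that of GPT with Gln added, 117 ± 24.2 times at 12 h and 98.4 ± 14.3 times at 24 h (SD, n = 3 each). The log2 ratio of GPT to GPT2 differed from Gln added by -1.89 at 12 h and by -1.66 at 24 h (exact permutation p = 0.1 for each, 0.129 after adjustment). Between 12 h and 24 h the libraries overlapped (exact permutation p = 0.3). In location the 2 pairs differed: the member that rose was the cytosolic one for aspartate and the mitochondrial one for alanine.

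OAT, ornithine aminotransferase, moves the amino group of ornithine to 2-oxoglutarate in mitochondria and so makes glutamate. It is on chromosome 10 from 124397303 to 124418976 (minus strand). With Gln added it was at 29.8, 30.6 and 29.5 FPKM. It was at 29.7, 30.3 and 32.5 FPKM after 12 h and at 30.0, 31.6 and 33.0 FPKM after 24 h. The groups overlapped at both times. Its log2 fold change was 0.04 at 12 h (adjusted p = 0.48 from limma) and 0.07 at 24 h (adjusted p = 0.202 from limma). The 95% intervals were -4.32% to 10.5% and -2.20% to 13.0%.

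**Figure D3:**
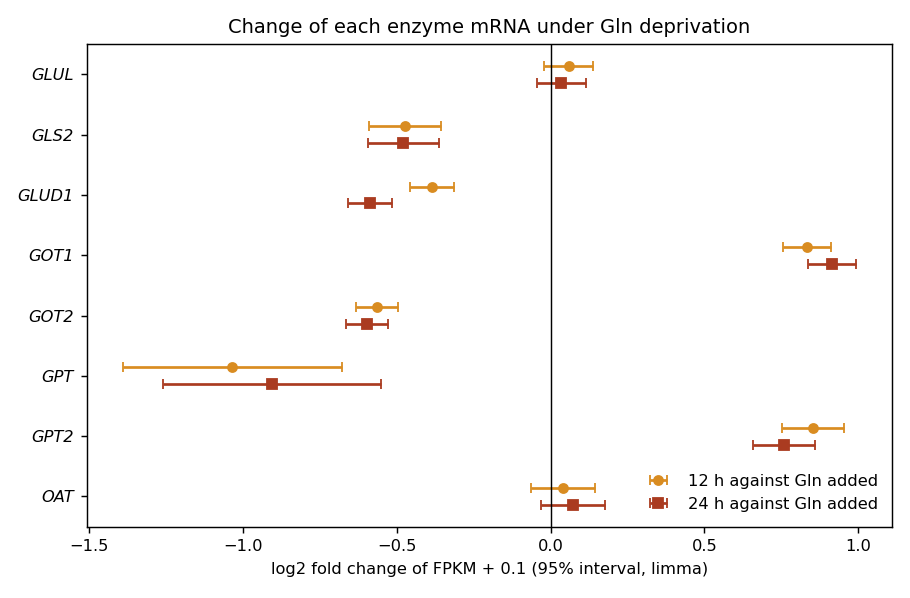
Log2 fold change of FPKM + 0.1 against Gln added (horizontal axis) for each enzyme at 12 h (circles) and 24 h (squares), with 95% intervals from limma. The intervals of GOT1 and GPT2 lie above 0 and those of GLS2, GLUD1, GOT2 and GPT below it, while those of GLUL and OAT include 0 at both times; GPT, at 52 to 150 fragments per library, has the widest.

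By level the order with Gln added was GLUD1, GOT2, GOT1, GPT2, GLUL, OAT, GLS2 and GPT, and neighbours in it did not overlap in their libraries. At 12 h and 24 h GOT2 came after GOT1 and GPT2, and the rest of the order was the same. Only GLUL and OAT at 24 h overlapped as neighbours, at 32.9 to 34.9 and 30.0 to 33.0 FPKM. The level of GOT1 placed it 765th among all genes of the table with Gln added and 326th at 24 h, that of GOT2 598th and 894th, and that of GPT2 943rd and 457th. Between replicates of a group the coefficient of variation ran from 0.658% to 6.57% for the 7 enzymes other than GPT and from 6.56% to 20.4% for GPT.

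From 12 h to 24 h of deprivation, 1 of the 8 enzymes fell and 0 rose (limma, adjusted p under 0.05), where 10.5% of all genes tested fell and 9.57% rose. The enzyme that fell was GLUD1. At an unadjusted p under 0.05, GOT1 was also higher, by 0.08 on the log2 scale (adjusted p = 0.139 from limma), and limma's voom on the recovered fragments called 0 higher. For GPT2 the log2 difference was -0.10 with a limma adjusted p of 0.165, but -0.15 and past the threshold without replicate 1 at 24 h, with a limma adjusted p of 0.0165. For GLS2, GLUL, GOT2 and OAT the 95% intervals of the difference lay within -8.02% and 9.85%, and for GPT they ran from -14.6% to 39.8%.

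The genes most like GOT1, the enzyme with the largest rise at 24 h, were MFHAS1, MLLT6 and CLIC1. Their log2 levels, centred on the mean of the libraries with Gln added, differed from those of GOT1 by 0.02 to 0.03 on average over the 9 libraries, out of 10868 genes compared (mean 1 FPKM or more). For GPT, which had the largest fall at 24 h on the log2(FPKM + 0.1) scale, they were PYCR3, APOA5 and CDK2AP2, at an average difference of 0.10 each. The 3 nearest genes of GOT2 were MYH10, ARF1 and MDH1, the cytosolic malate dehydrogenase, at differences of 0.0236, 0.0282 and 0.0287. These were named after their values were seen.

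The enzymes were set beside 5 lists of genes from related pathways, each described by its counts and its median. Over all genes tested, 29.1% were called higher and 31.0% lower at 12 h, and 33.0% higher and 31.7% lower at 24 h. Counts in a list are to be read beside these shares. Of 20 tested genes for other enzymes that form or use glutamate, 6 rose and 11 fell at 12 h and 6 rose and 12 fell at 24 h, with medians of -0.27 and -0.20 on the log2 scale. At 24 h the largest changes among them were those of TAT, tyrosine aminotransferase (1.20), BCAT2, the mitochondrial branched-chain aminotransferase (-1.02), and ETNPPL (-0.92). All were low, at means of 0.907, 2.79 and 3.755 FPKM with Gln added and 2.21, 1.31 and 1.93 FPKM at 24 h. Of 6 tested genes of the malate-aspartate shuttle and of glutamate carriers, 2 rose and 3 fell at both times (medians -0.18 and -0.17), though at 12 h 4 rather than 5 were called when 1 was added to FPKM in place of 0.1. MDH1 fell by 0.62 at 24 h and SLC25A11, the 2-oxoglutarate and malate carrier, by 0.60, while SLC25A12, an aspartate and glutamate carrier, rose by 0.68. Named after their values were seen, MDH2, the mitochondrial malate dehydrogenase, fell by 0.37 at 24 h and SLC25A13, the other aspartate and glutamate carrier, rose by 0.10. SLC25A13 was at a mean of 52.93 FPKM with Gln added and 56.65 FPKM at 24 h.

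Of 28 tested genes of the amino acid response, which ATF4 is known to drive and to which GPT2 is often counted, 27 rose and 0 fell at 12 h (27 rose and 0 fell also at an unadjusted p under 0.05 and with voom), and 27 rose and 1 fell at 24 h. The gene that fell was ATF5 (-0.21), named after its values were seen. Their medians were 1.27 and 1.12, above the values of GOT1 and GPT2. PSAT1 (0.94 at 12 h and 0.91 at 24 h) is counted both here and among the other enzymes that form or use glutamate. These 2 lists are thus not separate, and PSAT1 was named after its values were seen. ASNS, asparagine synthetase (2.74), CTH (2.14) and TRIB3 (1.96) had the largest changes of that list at 24 h. ASNS was at a mean of 0.128 FPKM with Gln added and 1.81 and 1.43 FPKM at 12 h and 24 h, so it passed the filter on low levels only through the deprived libraries and its fold change depends on the added 0.1. ALDH1L2, at 0.480 FPKM with Gln added and 1.61 and 2.01 FPKM when deprived, likewise passed only through the deprived libraries, and it was named after its values were seen. Exons of other genes on its strand also overlap 49.3% of the exonic bases of ASNS. Of 14 tested Wnt targets and genes of perivenous liver cells, where GLUL and OAT are also found, 6 rose and 5 fell at 12 h and 5 rose and 6 fell at 24 h (medians 0.10 and -0.08). LGR5, NKD1, NOTUM and SLC1A2 rose and AXIN2, RHBG, RNF43, SLC13A3 and TNFRSF19 fell at both times, with names outside the 3 largest chosen after their values were seen. SLC13A3 (-0.74), NKD1 (0.63) and TNFRSF19 (-0.62) had the largest changes there at 24 h. Of 20 p53 targets, a group to which GLS2 is known to belong, 5 rose and 11 fell at 12 h and 8 rose and 10 fell at 24 h (medians -0.29 and -0.15). The shares over all genes tested were 29.1% higher and 31.0% lower at 12 h, and 33.0% and 31.7% at 24 h. BBC3, GADD45A, PLK3, TNFRSF10B and TP53INP1 were the 5 that rose at 12 h. The 11 that fell then were BAX, CCNG1, DDB2, FAS, FDXR, MDM2, PHLDA3, RRM2B, SESN1, SPATA18 and ZMAT3. The names of both sets were likewise taken after the values were seen. The largest changes of the list at 24 h were those of PLK3 (1.29), FDXR (-0.96) and BBC3 (0.93).

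**Figure D4:**
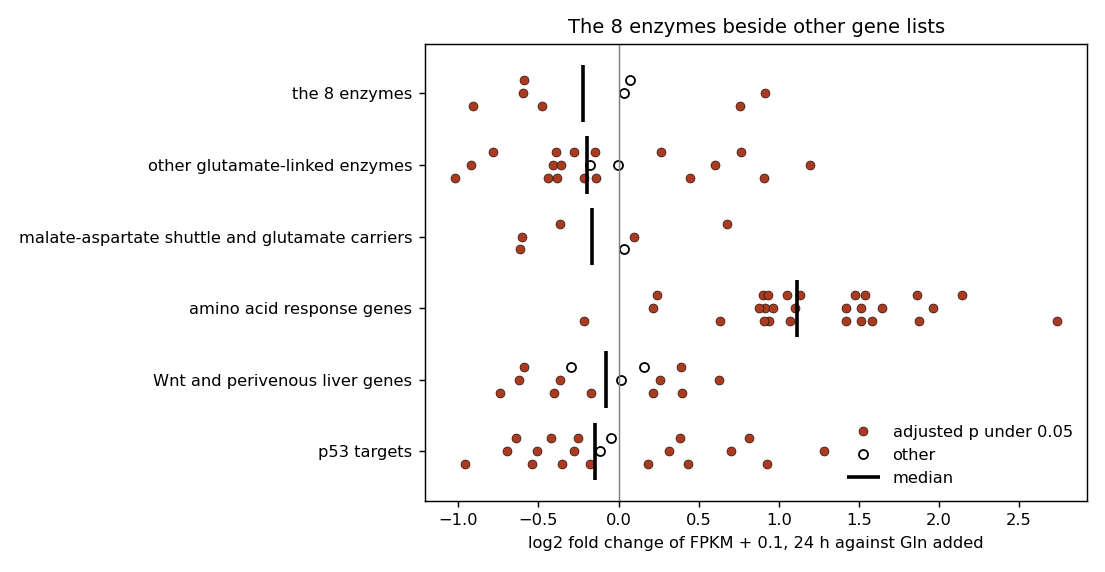
Log2 fold change of FPKM + 0.1 at 24 h against Gln added (horizontal axis) for the 8 enzymes and the tested genes of 5 lists; filled points had an adjusted p under 0.05 from limma, open points did not, and vertical bars are medians. The amino acid response genes lie mostly to the right, with a median of 1.12, while the 8 enzymes (median -0.22) and the other lists lie on both sides of 0.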

How the data were processed

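RNA-seq of 9 HepG2 libraries (3 per group, named by replicate number in the labels) was analysed. According to the methods, reads were aligned to GRCh38 with STAR; HTSeq and R 3.2.0 are named in the submitters' processing notes, and the annotation is not given in the sources used here. FPKM for each gene in each library were deposited by the authors, and no further scaling is stated. The columns were matched to libraries by the labels.

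FPKM are not counts, so the count model of the study was replaced by limma 3.58.1 (R 4.3.3), in 1 fit of the 3 groups with lmFit and eBayes, trend included, on log2(FPKM + 0.1). The fit held the 11880 genes whose mean was 0.5 FPKM or more. All 8 enzymes passed this filter. Because of the added 0.1, changes of low genes are understated. Whole fragments were solved from the steps of the FPKM and came out whole within 0.02 for 100% of genes. On simulated data for the 12 h comparison (11847 genes), limma called 97.0% of genes changed by 0.5 and 99.0% of those changed by 1 on the log2 scale, and 0.0859% of unchanged genes. Only 99 genes were changed by 0.5 there and 100 by 1, with the same dispersion for every gene. In the real data 29.1% of genes tested were called higher and 31.0% lower at 12 h. The simulated rates therefore need not hold for this fit. Replicates of a group differed by more than sampling noise (chi-square per degree of freedom of 3.11 or more in each pair). Nothing in the labels says that replicates came from separate cultures or experiments, so p-values measure the spread between these libraries.

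The enzymes, lists and pairs were chosen with earlier results of these data known. Every enzyme is named; from each list the 3 genes with the largest change at 24 h among those called are named, and for the enzymes with the largest rise and fall at 24 h the 3 genes with the smallest mean absolute difference in centred log2 level. Positions are from GENCODE v44. Some genes of the lists are counted but not reported by name here. Alternatives were a pseudocount of 1 or 0.01, a filter at 1 FPKM or none, scaling by median ratio or to a common total, a fit without the third group, a block for the replicate number, eBayes with no trend, voom on the recovered fragments, and leaving out each library in turn. Plots were made in Python 3.11.15 with matplotlib 3.10.9.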

Additional observations from a re-analysis of the deposited data

Results flagged for a closer look

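GLUD1 was the enzyme whose effect differed between the times of deprivation: its level was lower at 24 h than at 12 h by a log2 difference of -0.20 (limma on the contrast between the times, adjusted p = 0.00173), with the 3 libraries at 24 h (184 to 191 FPKM) below the 3 at 12 h (211 to 222 FPKM).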

How the results depend on the processing

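The 6 enzymes called at 12 h and at 24 h against Gln added, and GLUD1 between the times, kept their direction and their side of the threshold under all 19 alternatives run for each, 247 values in all. The numbering of replicates was not shown to pair the libraries: deviations from the group means correlated at -0.136 to 0.283 between libraries of the same number. With the replicate number as a block, 6 enzymes were called at 12 h, 6 at 24 h and 1 between the times, the same enzymes as without it. Between the times, 1 enzyme was called with each library left out in turn, except without replicate 1 at 24 h, where GPT2 was called too and the count was 2. With FPKM rescaled to the same total, GLUL was also called at 12 h, which made 7. Of the 7 differences between the times that did not pass the test, those of GLS2, GPT and OAT changed sign under some alternatives. That of GLS2 (-0.005) was 0.009 with FPKM rescaled to the same total and ran from -0.047 to 0.017 with each library left out in turn, above 0 without replicate 1 at 12 h, replicate 2 at 24 h or replicate 3 at 24 h (0.015, 0.015 and 0.017). That of GPT ran from -0.036 (without replicate 3 at 12 h) to 0.268, and that of OAT from -0.002 (without replicate 3 at 24 h) to 0.07. The cause was not tested. A pseudocount of 1 gave GPT log2 fold changes of -0.65 at 12 h and -0.58 at 24 h (-1.03 and -0.91 otherwise), and left 4 of the 5 shuttle and carrier genes called at 12 h. Of these genes, 1 was called between the times after median-ratio scaling and 0 without it (3 at an unadjusted p under 0.05; 0 with voom). Depth limits GPT most, at 52 to 150 fragments per library.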
